A study of Rattus norvegicus with 9 samples.

Results

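Smoc1, Crim1, Frzb, Serpine2 and Crispld2 encode proteins that work outside the cell, where they bind matrix or growth factors or block proteases. They are 5 of the 11235 genes in the deposited FPKM table, found by gene symbol, each with 1 row, and 5 of the 17335 genes with enough reads to be tested. They were picked because their counts differed between the groups of this series, so every difference of these 5 genes given here is a description of the values that chose them and carries no p-value. Poly(A) RNA of wild-type Sprague-Dawley rat kidney was sequenced in 9 libraries, 3 each from sham-operated rats, from rats with renal ischaemia-reperfusion (I/R) injury and from rats with the same injury given rapamycin (I/R + rapamycin). Blood flow was stopped for 45 min and then restored, and rapamycin is a drug that binds FKBP12 and inhibits mTOR complex 1. The labels give rats 6 to 8 weeks old and name no vehicle for the sham and I/R groups. They do not settle sex, dose, route or time: the series design has male rats injected intraperitoneally with 1 mg/kg per day, while the sample protocols have both sexes dosed by oral gavage at 1 or 2 mg/kg per day, beginning 1 day before surgery, in 6 groups reperfused for 3 or 7 days. The replicates carry numbers only, with no statement that they are different animals, so the p-values reflect spread among these libraries, which may be technical. In the deposited table the genes are ENSRNOG00000005998 (Smoc1) and ENSRNOG00000004208 (Crim1) on chromosome 6, ENSRNOG00000007765 (Frzb) on chromosome 3, ENSRNOG00000015461 (Serpine2) on chromosome 9 and ENSRNOG00000016752 (Crispld2) on chromosome 19.

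Secreted and matrix-bound modulators control how much of a growth factor reaches its receptor, and protease inhibitors limit the enzymes that cut matrix and precursors. SMOC1 is a calcium-binding glycoprotein of the SPARC family that sits in basement membranes and antagonises bone morphogenetic protein (BMP) signalling. CRIM1 is a membrane-anchored protein with cysteine-rich repeats of the chordin type that binds BMPs and other growth factors, and in the kidney it is known for its part in glomerular development. FRZB, also called sFRP3, carries a frizzled-like domain and binds Wnt ligands. SERPINE2, also called protease nexin-1, is a serpin that inhibits thrombin, urokinase and related serine proteases at the cell surface. CRISPLD2 is a secreted protein with a CAP domain and LCCL domains that binds heparin and lipopolysaccharide. The authors' gene annotation lists heparin binding for Serpine2 and Crispld2, a term held by 39 of the 11235 genes of the table, and negative regulation of BMP signaling for Crim1, held by 27.

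Promoter windows are shown for the pair that was lower in both injured groups, Smoc1 and Frzb, and for the gene that was higher in both, Serpine2, so that their base composition can be compared. Each runs from 250 bases before to 50 bases after a RefSeq transcript start on the build GRCr8, 5′ to 3′ along the gene's strand. Capitals mark matches, on either strand, to 7 motifs searched: the TATA box TATAAA, the CCAAT box, the GC box GGGCGG, the AP-1 motif TGANTCA, the TCF/LEF motif CTTTGNT, the BMP SMAD motif GGCGCC and the palindromic glucocorticoid response element.
Smoc1, chr6:106432356-106432655, plus strand: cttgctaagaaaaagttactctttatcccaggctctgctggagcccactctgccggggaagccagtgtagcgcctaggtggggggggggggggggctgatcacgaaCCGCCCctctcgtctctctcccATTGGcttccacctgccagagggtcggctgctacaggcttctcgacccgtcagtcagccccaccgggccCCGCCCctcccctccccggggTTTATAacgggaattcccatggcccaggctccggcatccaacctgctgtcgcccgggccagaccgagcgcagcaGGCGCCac
Frzb, chr3:85772047-85772346, minus strand: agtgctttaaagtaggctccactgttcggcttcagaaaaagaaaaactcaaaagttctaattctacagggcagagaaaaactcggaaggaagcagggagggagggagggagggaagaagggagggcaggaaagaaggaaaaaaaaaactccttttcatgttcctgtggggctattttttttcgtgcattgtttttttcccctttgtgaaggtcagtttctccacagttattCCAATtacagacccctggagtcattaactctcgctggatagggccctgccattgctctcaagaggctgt
Serpine2, chr9:88637153-88637452, minus strand: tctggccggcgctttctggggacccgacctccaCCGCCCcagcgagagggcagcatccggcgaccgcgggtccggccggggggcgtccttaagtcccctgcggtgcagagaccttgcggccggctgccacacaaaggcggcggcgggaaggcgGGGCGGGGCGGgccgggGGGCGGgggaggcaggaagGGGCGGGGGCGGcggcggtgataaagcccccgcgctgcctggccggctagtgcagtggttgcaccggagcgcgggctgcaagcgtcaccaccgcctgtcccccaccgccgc

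The 3 windows differ in composition. The Serpine2 window is 77.0% G or C, higher than in 97.9% of 33469 RefSeq windows of the same length, and the Smoc1 window is 66.3%. The Frzb window is 45.3% G or C, against a median of 51.7% over all windows, and holds 4 CG dinucleotides where the Serpine2 window holds 37. Serpine2 has 6 GC boxes, among which adjoining matches can share a base, Smoc1 has 2 and Frzb has none in these letters; 33.1% of all windows hold at least 1. Smoc1 also has a TATA box match on the opposite strand at base -32, a motif that 14.2% of windows hold, and a BMP SMAD match at base 43. Smoc1 and Frzb each have a CCAAT box match, as do 37.5% of windows. No match of different motifs overlapped another. The Crim1 window, not printed, is 75.0% G or C with 1 CCAAT box and 1 GC box. The RefSeq window of Crispld2 starts 17192 bases inside the gene's annotated 5′ end and so belongs to an internal start; it is 56.0% G or C with 1 CCAAT box and 1 TCF/LEF match. None of the 5 windows holds the AP-1 motif or the glucocorticoid response element, which 7.33% and 0.0149% of all windows hold. These matches describe letters, not binding.

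The authors' total counts ranged from 44582251 to 60538627 per library, and the members had between 222 (Smoc1 in I/R + rapamycin 1) and 6160 reads (Crim1 in sham 3). In most groups the spread between libraries therefore limits these values more than counting does. Values are CPM, counts relative to library size, on library sizes scaled by TMM, edgeR's trimmed mean factors, and log2 fold changes with standard errors come from edgeR's quasi-likelihood fit of all 9 libraries. Beside the label renal tubular cell, markers of other kidney cells were present: 11 of 13 listed podocyte genes summed to 732 to 1199 CPM, 12 of 13 endothelial genes to 899 to 1016 CPM and 12 of 12 proximal tubule genes to 12596 to 16783 CPM, so the libraries hold RNA of several kidney cell types. Libraries of a group differed in genes that respond to handling: the immediate early and heat shock list, 7 of 9 genes measured and among them Fos and Hspa1b, summed to 517, 1253 and 3321 CPM in sham, to 304, 1439 and 1608 CPM in I/R and to 270, 246 and 330 CPM in I/R + rapamycin. In such tissue RNA, fewer cells of a type and less RNA per cell cannot be told apart.

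Smoc1 showed a step in each injured group. Sham libraries had 20.3, 25.2 and 25.2 CPM, against 12.1, 7.91 and 9.67 CPM in I/R and 5.13, 6.96 and 7.19 CPM in I/R + rapamycin. Every sham library was above every injured one, and every I/R library was above every treated one. The group means were 23.5 ± 2.82 CPM (SD, n = 3), 9.9 ± 2.12 CPM (SD, n = 3) and 6.43 ± 1.13 CPM (SD, n = 3). The fitted log2 fold change was -1.25 (SE 0.186) for I/R against sham and -0.62 (SE 0.187) for I/R + rapamycin against I/R. For I/R + rapamycin against sham it was -1.87 (SE 0.19), a level 3.66-fold lower, and 1.22% of all tested genes were as low or lower in that comparison. Among the 5 genes this was the widest difference between any 2 groups.

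Frzb and Serpine2 separated the sham group from both injured groups and barely separated those from each other. Frzb, the Wnt-binding gene, was at 79.9, 81.4 and 82.7 CPM in sham, at 47.0, 55.1 and 59.0 CPM in I/R and at 46.9, 54.2 and 47.3 CPM in I/R + rapamycin. Its sham libraries were close together, with a coefficient of variation of 1.71%, which is about what counting alone gives at 4149 to 4972 reads. All 3 lay above all 6 injured libraries, while the injured groups overlapped. The log2 fold change of Frzb was -0.60 (SE 0.0984) for I/R against sham and -0.72 (SE 0.0986) for I/R + rapamycin against sham, and between the injured groups it was -0.12 (SE 0.0983).

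Serpine2, the protease inhibitor gene, was the member with higher levels after injury. It was at 13.4, 11.1 and 11.1 CPM in sham, at 28.5, 20.9 and 22.8 CPM in I/R and at 22.5, 24.4 and 23.8 CPM in I/R + rapamycin. All 6 injured libraries lay above all 3 sham libraries, and the treated values lay inside the range of the untreated injured ones. The log2 fold change was 1.02 (SE 0.135) for I/R against sham and 0.99 (SE 0.135) for I/R + rapamycin against sham, 2.02-fold and 1.98-fold, and -0.03 (SE 0.133) between the injured groups. The 2 comparisons with sham share the sham libraries, so their likeness is not independent.

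Crim1 and Crispld2 were lower in the treated group than in either other group. Crim1, the BMP-binding membrane protein gene, was at 92.7, 88.6 and 102 CPM in sham, at 91.0, 81.8 and 92.2 CPM in I/R and at 42.4, 55.6 and 59.1 CPM in I/R + rapamycin. Its sham and I/R libraries overlapped, and the highest treated library lay below the lowest of the other 6. The log2 fold change was -0.10 (SE 0.121) for I/R against sham, -0.75 (SE 0.122) for I/R + rapamycin against I/R and -0.85 (SE 0.122) for I/R + rapamycin against sham.

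Crispld2 was at 13.8, 12.3 and 17.2 CPM in sham, at 19.1, 16.3 and 18.5 CPM in I/R and at 6.98, 7.8 and 10.0 CPM in I/R + rapamycin. The sham and I/R values overlapped, and the treated libraries were the lowest 3 of the 9. The log2 fold change was 0.31 (SE 0.167) for I/R against sham, -1.12 (SE 0.17) for I/R + rapamycin against I/R and -0.80 (SE 0.17) for I/R + rapamycin against sham.

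**Figure D1:**
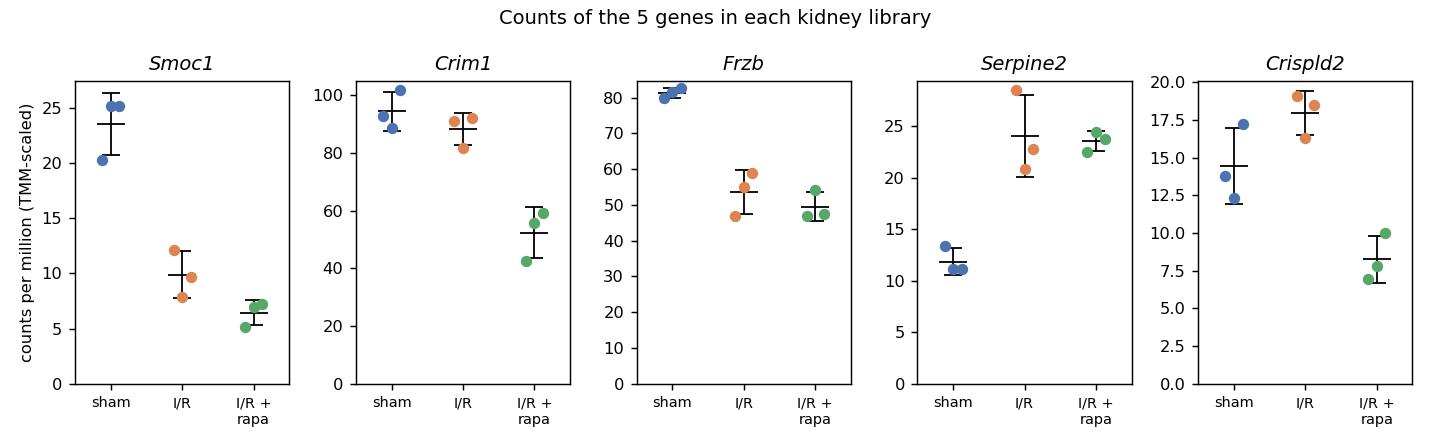
Points are single libraries in CPM on TMM-scaled library sizes, each panel on its own axis from 0, and bars give the mean and SD of 3 libraries. Smoc1 steps down from sham (20.3 to 25.2) to I/R (7.91 to 12.1) to I/R + rapamycin (5.13 to 7.19), Frzb and Serpine2 separate sham from both injured groups, and Crim1 and Crispld2 are lowest in the treated group.

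**Figure D2:**
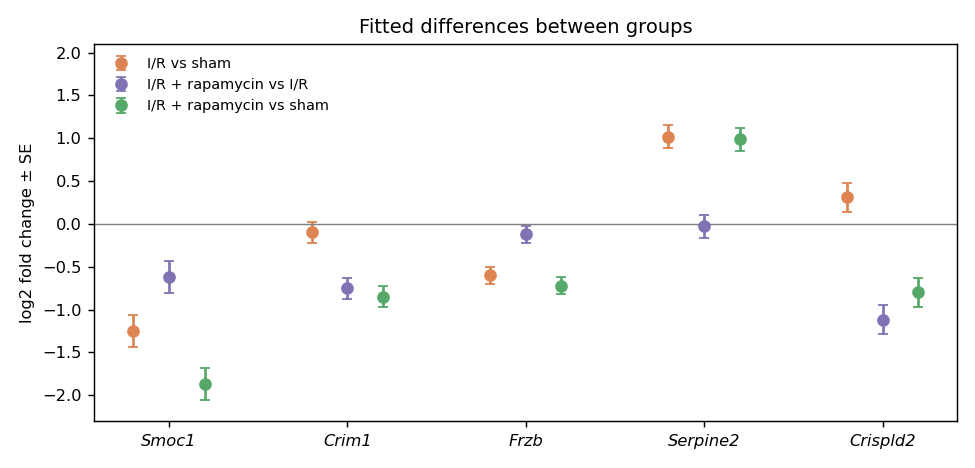
Points are log2 fold changes from the fit of all 9 libraries, bars are standard errors, and colours are the 3 comparisons. The values chose the genes and are a description: Smoc1 against sham reaches -1.87 with rapamycin, Serpine2 is near 1 in both comparisons with sham, and Crispld2 reaches -1.12 when treated and untreated injured kidneys are compared.

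Counted over the 5 genes, I/R against sham had 1 gene with the I/R libraries all higher and 2 with them all lower, where 7.43% and 7.19% of all tested genes were so separated. I/R + rapamycin against I/R had 3 genes all lower, against 12.8% of all tested genes, and none all higher. I/R + rapamycin against sham had 4 all lower and 1 all higher, against 9.65% and 9.69%. At an adjusted p under 0.05 over all tested genes, which was among the values that chose the members, edgeR's test called Serpine2 in I/R against sham (0.0346% of tested genes were called higher and 0.0231% lower) and Crispld2 in I/R + rapamycin against I/R (0.11% called lower and 0.0173% higher). In I/R + rapamycin against sham it called Smoc1, Crim1 and Frzb (0.115% called lower) and Serpine2 (0.0404% called higher). Because the genes were chosen from these contrasts, nothing is read from the counts. Leaving out 1 of the 6 libraries compared ended no call of Smoc1, but ended the others in 5 of 6 cases, and in 6 of 6 for Serpine2 in I/R + rapamycin against sham. The cases that kept a call were without I/R + rapamycin 3 for Crim1 and Crispld2, without sham 3 for Frzb, and without I/R 1 for Serpine2 in I/R against sham. Kept and lost calls use the values that chose the genes, so a kept call is no support for a member.

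Levels can be compared between genes only per transcript length, so the order of the 5 is given in FPKM, the authors' fragment counts scaled to transcript length and library size. In sham kidneys Frzb was the most abundant at 26.6 ± 0.673 FPKM (SD, n = 3) and Crim1 followed at 20.8 ± 1.79 FPKM. Smoc1 at 5.86 ± 0.552 FPKM, Serpine2 at 4.62 ± 0.649 FPKM and Crispld2 at 4.25 ± 0.773 FPKM came next, and Serpine2 overlapped both Smoc1 and Crispld2. In I/R kidneys Crim1 (19.7 ± 1.98 FPKM) and Frzb (17.8 ± 1.91 FPKM) overlapped, Serpine2 stood at 9.5 ± 1.87 FPKM, Crispld2 at 5.37 ± 0.643 FPKM and Smoc1 at 2.52 ± 0.624 FPKM. In treated kidneys the order was Frzb at 15.7 ± 1.09 FPKM, Crim1 at 11.2 ± 2.04 FPKM, Serpine2 at 8.84 ± 0.434 FPKM, Crispld2 at 2.36 ± 0.512 FPKM and Smoc1 at 1.55 ± 0.295 FPKM, with Crim1 and Serpine2 overlapping.

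The order of the Smoc1 and Serpine2 group means differed between sham and the injured groups. In sham 1, Smoc1 was slightly below Serpine2 (5.23 and 5.37 FPKM), as it was in every injured library. The ratio of Smoc1 to Serpine2 FPKM was 0.976, 1.46 and 1.46 in the sham libraries, 0.274, 0.244 and 0.273 in I/R and 0.146, 0.183 and 0.195 in I/R + rapamycin. The 3 groups did not overlap in this ratio, which uses the values that chose both genes.

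**Figure D3:**
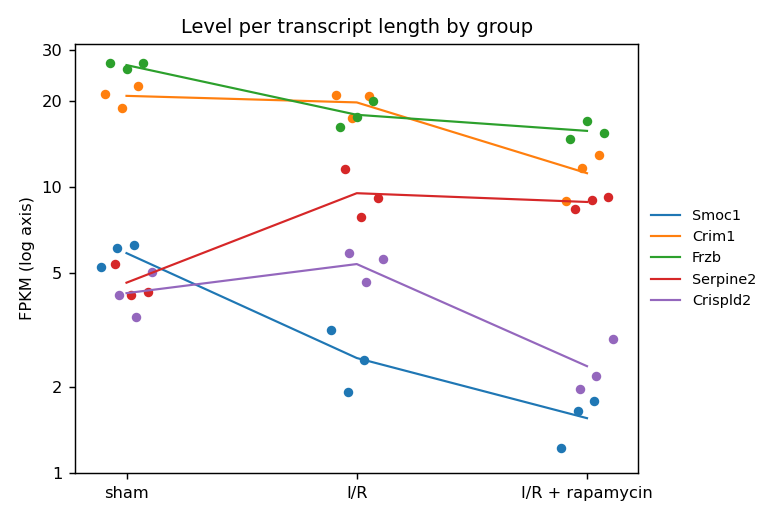
Points are single libraries in FPKM on a log axis, and lines join the group means of each gene. Frzb and Crim1 lie above the other 3 genes in sham and I/R, Serpine2 reaches 9.5 FPKM in I/R from 4.62 in sham, and Smoc1 goes from 5.86 in sham to 1.55 in I/R + rapamycin.

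The 5 genes did not vary as a block. Over the 9 libraries the log2 CPM of Crim1 and Crispld2 had a Pearson correlation of 0.92, Smoc1 and Frzb of 0.89, and Frzb and Serpine2 of -0.95. With each group's mean removed, Crim1 and Crispld2 were at 0.85 and Smoc1 and Crim1 at 0.73, so libraries of a group that were higher in Crim1 tended to be higher in the other 2. Smoc1 and Frzb were then at -0.19 and Frzb and Serpine2 at -0.51. These correlations describe 9 libraries that share their depth scaling, and the genes were chosen for group differences.

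Other genes followed the same courses over the 9 libraries. Of 10376 other genes with a symbol and a mean of at least 5 CPM, the nearest to Crim1 were Ikbkg, the regulatory subunit of the IκB kinase complex (Pearson correlation 0.984), the scaffold gene Iqgap1 (0.979) and FAM120C (0.976), and 111 genes were above 0.9. The nearest to Crispld2 were Pigg, an enzyme of GPI anchor synthesis (0.979), the zinc finger gene Zc3h4 (0.972) and the cyclin gene Ccnt1 of the elongation factor P-TEFb (0.972), with 150 genes above 0.9. Smoc1 had 25 such genes, led by the transcription factor gene Stat5b (0.966), the diacylglycerol kinase gene Dgka (0.961) and the mitochondrial malic enzyme gene Me2 (0.958). Frzb had 12, led by LOC100911413, described in the table as a DMBT1-like protein (0.962), Utp25 of the small ribosomal subunit processome (0.952) and the splicing factor gene U2af2 (0.947). Serpine2 also had 12, led by Nrep (0.957), C2cd5 (0.953) and the antiproliferative gene Tob2 (0.946).

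The sizes of these differences were unlike. LOC100911413 was at 32.2 ± 2.56 CPM in sham, 13.5 ± 1.98 CPM in I/R and 10.7 ± 0.754 CPM in I/R + rapamycin. These genes were picked for their likeness to members that were themselves chosen for group differences, so their levels are a description with no test. Nrep, whose protein is linked to tissue repair, was at 36.1 ± 4.78, 64.1 ± 10.8 and 57.6 ± 3.45 CPM in the 3 groups, while U2af2 was at 138 ± 3.97, 121 ± 2.33 and 118 ± 4.03 CPM.

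The nearest protein-coding neighbours on the RefSeq assembly were looked at next to see whether the differences ran along the chromosome. Of the 20 genes that lie first or second on either side of the 5 members, 15 were found among the tested genes of the FPKM table. Their edgeR adjusted p was 0.233 or more in every comparison. Fez2 and Fam98a, on either side of Crim1, were at 0.00 and 0.13 for I/R + rapamycin against I/R, where Crim1 was at -0.75. Dnajc10 and Nckap1, beside Frzb, were at -0.16 and 0.09 for I/R against sham, and Usp10 and Zdhhc7, beside Crispld2, at -0.11 and 0.30 for I/R + rapamycin against I/R. Near Smoc1, Slc10a1, Pla2g1bl1 and Slc8a3 were not found among those genes and Cox16 was at -0.14 for I/R against sham, so little can be said there. Beside Serpine2, Mrpl44 was at -0.10 for I/R against sham and Fam124b was not found among the tested genes of the FPKM table. Few genes were called in any comparison, so an uncalled neighbour says little. Smoc1 and Crim1 are both on chromosome 6 and are not among each other's neighbours.

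The pathway around the members was read from 14 lists of 221 genes, of which 122 had a symbol and enough reads. The others are not analysed here. Genes that did not reach 1 FPKM in at least 8 of the 9 libraries are missing from these counts. A gene under that level throughout a single group would be among them. With edgeR, 0 of the 122 were called in each comparison. In the order I/R against sham, treated against I/R and treated against sham, 0.0577%, 0.127% and 0.156% of all tested genes were called. At an unadjusted p under 0.05 the numbers were 18, 32 and 33 of 122, or 14.8%, 26.2% and 27.0%, beside 9.42%, 16.3% and 13.8% of all tested genes. DESeq2 called 2, 15 and 12 of the 122, where it called 240, 678 and 559 genes in all, far more than edgeR. The DESeq2 calls were F3 and Sparc in the first comparison. In the second they were Bmp4, Id2, Fkbp5, Serpinb1a and Vegfb with higher values and Bmpr2, Bmp6, Gsk3b, Lrp6, Fzd5, Igf1r, Nrp1, Tgfbr3, Errfi1 and Per1 with lower ones. In the third they were Ccnd1, Sgk1, Klf15, Fkbp5, Tsc22d3, Serpinb1a, F3, Sparc and Vegfb with higher values and Bmpr2, Flt1 and Tgfbr3 with lower ones. The median log2 fold changes of the 122 genes were 0.05, -0.10 and -0.08, against 0.00, 0.01 and 0.00 over all tested genes. The 122 are drawn from the 11232 tested genes of the FPKM table. The shares and medians over all 17335 tested genes also take in genes outside that table, which did not have to reach 1 FPKM. These sets are unlike, so no excess is read from the comparison, nor from the counts of single lists below.

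Among the SPARC family and matricellular genes, 14 of 27 were measured, with 3, 1 and 4 at an unadjusted p under 0.05 in the 3 comparisons. Smoc2, the closest relative of Smoc1, was at 8.92 ± 3.32 CPM in sham, 24.8 ± 20.3 CPM in I/R and 23.7 ± 11.9 CPM in I/R + rapamycin, with a log2 fold change of 1.48 (SE 0.709, edgeR adjusted p = 0.583) for I/R against sham. The fitted value lay above 0 where that of Smoc1 lay below it, and the Smoc2 groups overlapped. Sparc, a collagen-binding matrix protein gene, was at 347 ± 14.6, 454 ± 59.0 and 492 ± 16.7 CPM, with log2 fold changes of 0.39 (SE 0.108, adjusted p = 0.294) and 0.50 (SE 0.108, adjusted p = 0.109) against sham. Ccn1, a matricellular gene of the immediate early kind, was at 263 ± 94.5, 219 ± 132 and 97.4 ± 20.3 CPM.

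BMP signalling genes, on which SMOC1 and CRIM1 act, came next. Of 10 ligands 3 were measured: Bmp4 was at 36.5 ± 3.05, 30.3 ± 2.64 and 39.1 ± 2.23 CPM, Bmp6 at 12.5 ± 2.42, 13.4 ± 0.81 and 8.98 ± 1.11 CPM, and Bmp7 at 98.8 ± 15.0, 102 ± 11.7 and 95.9 ± 8.33 CPM in sham, I/R and I/R + rapamycin. For I/R + rapamycin against I/R, Bmp6 had a log2 fold change of -0.58 (SE 0.159, edgeR adjusted p = 0.151) and Bmp4 of 0.37 (SE 0.1, adjusted p = 0.149). Of 19 antagonists and modulators 8 were measured, and 0, 0 and 1 were at an unadjusted p under 0.05. Among them Chrd, the chordin gene, was at 35.3 ± 7.93, 42.1 ± 4.35 and 36.8 ± 3.73 CPM, Grem1 at 34.5 ± 9.43, 32.7 ± 7.13 and 32.6 ± 7.95 CPM and the sclerostin-like Sostdc1 at 101 ± 12.6, 83.3 ± 3.68 and 99.9 ± 16.7 CPM. The 1 below that p was Twsg1, at 0.16 (SE 0.0732, edgeR adjusted p = 0.359) for I/R + rapamycin against sham.

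Of 12 BMP receptor and SMAD genes 9 were measured, and 1 of the 9 had a fitted value above 0 for I/R + rapamycin against I/R, with a list median of -0.24. The type II receptor gene Bmpr2 was the lowest at -0.75 (SE 0.231, edgeR adjusted p = 0.181), from 46.6 ± 6.21 to 27.6 ± 8.61 CPM. Of 10 BMP target genes 6 were measured. Id1, Id2, Id3 and Id4, the inhibitors of differentiation that BMP receptors induce, had log2 fold changes of -0.56, -0.50, -0.36 and -0.11 for I/R against sham and of 0.56, 0.65, 0.51 and 0.56 for I/R + rapamycin against I/R. The remaining targets, the inhibitory SMAD genes Smad6 and Smad7, were at -0.26 and -0.18 in the first comparison and at -0.21 and -0.10 in the second, so their values did not reverse. Both comparisons share the I/R libraries. None of the 4 Id genes was called by edgeR (adjusted p = 0.349, 0.132, 0.343 and 0.25 in the second comparison). DESeq2 called Id2 there (adjusted p = 0.0115), and also Bmp4 (0.0417), Bmp6 (0.0396) and Bmpr2 (0.0311), among 678 genes that it called.

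Of 15 Wnt ligands only Wnt5a and Wnt5b were measured, and of 12 secreted Wnt modulators 3. Sfrp1, a relative of Frzb, was at 53.6 ± 4.48 CPM in sham, 52.7 ± 2.96 CPM in I/R and 49.0 ± 1.8 CPM in I/R + rapamycin. Its log2 fold change of -0.02 (SE 0.0867) for I/R against sham stands beside -0.60 for Frzb. Sfrp2 was at 38.8 ± 9.8, 27.4 ± 14.9 and 29.9 ± 6.42 CPM and the Dickkopf gene Dkk2 at 42.0 ± 3.15, 38.2 ± 7.77 and 35.8 ± 5.12 CPM. Of 28 Wnt receptor and transducer genes 20 were measured. For I/R + rapamycin against I/R 4 of the 20 had an unadjusted p under 0.05, as did 16.3% of all tested genes. All 4 had values below 0: the receptor genes Fzd5 at -0.66 (SE 0.184) and Lrp6 at -0.53 (SE 0.153), the kinase gene Gsk3b at -0.68 (SE 0.207) and the ligase gene Rnf43 at -0.42 (SE 0.161), with edgeR adjusted p from 0.153 to 0.244. Of 8 Wnt targets only Ccnd1 and Myc were measured. Ccnd1, the cyclin D1 gene, was at 70.3 ± 5.65, 104 ± 16.9 and 129 ± 29.3 CPM, or 0.87 on the log2 scale (SE 0.17, edgeR adjusted p = 0.0935) for I/R + rapamycin against sham.

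The proteases and receptors around SERPINE2 were measured for 11 of 17 genes. F3, the tissue factor gene that starts thrombin generation, was at 83.1 ± 17.7 CPM in sham, 126 ± 16.6 CPM in I/R and 137 ± 19.3 CPM in I/R + rapamycin. Its log2 fold changes against sham were 0.60 (SE 0.161, edgeR adjusted p = 0.288) and 0.72 (SE 0.161, adjusted p = 0.115). DESeq2 called both (adjusted p = 0.037 and 0.00284), in comparisons where it called 240 and 559 genes. The injured libraries lay above all sham libraries in both. Plau, the urokinase gene, was at 639 ± 9.17, 597 ± 132 and 588 ± 29.9 CPM and Prss8, the gene of the channel-activating protease prostasin, at 316 ± 21.7, 306 ± 14.9 and 312 ± 16.7 CPM. Of 16 other serine protease inhibitors 10 were measured. Serpinb1a, an inhibitor of neutrophil proteases, was at 17.4 ± 1.79, 15.4 ± 2.11 and 24.6 ± 1.66 CPM, 0.68 (SE 0.129, edgeR adjusted p = 0.0879) for I/R + rapamycin against I/R.

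Relatives of CRISPLD2 with CAP or LCCL domains were measured for 5 of 14 genes. Dcbld1, a membrane protein gene with an LCCL domain, was at 22.1 ± 1.08, 26.8 ± 1.12 and 21.1 ± 1.91 CPM, and Coch, the cochlin gene, at 22.5 ± 0.955, 12.7 ± 1.52 and 13.8 ± 7.0 CPM. For I/R + rapamycin against I/R Dcbld1 was at -0.35 (SE 0.0999, edgeR adjusted p = 0.162). Crispld2 is known as a glucocorticoid-induced gene in other tissues, and 9 of 11 listed glucocorticoid response genes were measured. Their courses were mixed. Fkbp5 and Tsc22d3 had log2 fold changes of 0.67 (SE 0.164, edgeR adjusted p = 0.126) and 0.27 (SE 0.122, adjusted p = 0.305) for I/R + rapamycin against I/R, and Per1, Klf9 and Errfi1 of -0.52 (SE 0.126, adjusted p = 0.125), -0.43 (SE 0.139, adjusted p = 0.191) and -0.60 (SE 0.202, adjusted p = 0.203). Per1, Klf9 and Errfi1 had values of 0.44, 0.23 and 0.34 for I/R against sham, so their signs in these comparisons were those of Crispld2, at 0.31 and -1.12. Ddit4 (0.57 and -0.09) and Nr3c1 (0.10 and -0.21) had these signs too. Sgk1 (0.42 and 0.20), Klf15 (0.21 and 0.27), Tsc22d3 and Fkbp5 did not. Both comparisons share the I/R libraries, and a part of glucocorticoids was not tested. Against sham, Tsc22d3 was at 0.65 (SE 0.123, adjusted p = 0.0872) with rapamycin, where Crispld2 was at -0.80.

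VEGF, PDGF, TGF-beta and IGF ligands and receptors, some of which CRIM1 is known to bind, were measured for 20 of 22 genes. For I/R + rapamycin against I/R, 1 was higher and 7 lower at an unadjusted p under 0.05, with a median of -0.22. Over all tested genes 16.3% had such a p, in either direction. Igf1r, the IGF-1 receptor gene, was at 19.4 ± 3.72, 23.0 ± 1.62 and 12.9 ± 2.44 CPM (log2 fold change -0.84, SE 0.173, edgeR adjusted p = 0.0943), and Vegfb at 28.3 ± 2.55, 29.9 ± 1.82 and 40.6 ± 3.14 CPM (0.44, SE 0.102, adjusted p = 0.117). Vegfa, whose product podocytes make and CRIM1 binds, was at 329 ± 20.5, 286 ± 34.3 and 287 ± 28.4 CPM. Flt1, a VEGF receptor gene, was at 78.2 ± 4.65, 66.1 ± 4.54 and 53.7 ± 7.68 CPM, or -0.54 on the log2 scale (SE 0.108, edgeR adjusted p = 0.0938) for I/R + rapamycin against sham.

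**Figure D4:**
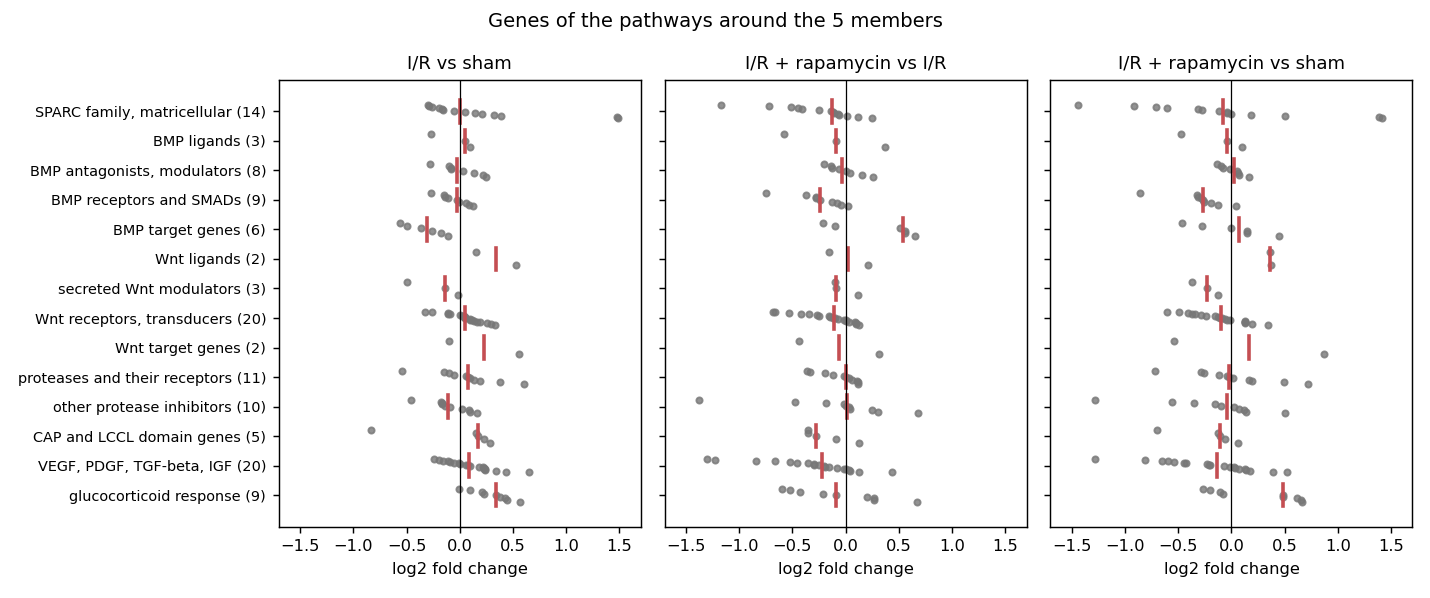
Each point is the log2 fold change of 1 measured gene, each row a list with its number of genes in brackets, each panel a comparison, and red bars are list medians. Values are not corrected for transcript length. EdgeR called none of the 122 genes; the BMP target list has a median of -0.31 in I/R against sham and 0.54 for treated against untreated injury, and the glucocorticoid response list 0.34 and -0.09.

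Marker lists of kidney cell types were set beside the members, whose cells of expression were not measured here. The summed podocyte markers were 1072 to 1199 CPM in sham, 798 to 1076 CPM in I/R and 732 to 1018 CPM in I/R + rapamycin. For I/R against sham, treated against I/R and treated against sham, 4, 2 and 6 of the 11 genes had an unadjusted p under 0.05, all with values below 0. Over all tested genes the shares, in either direction, were 9.42%, 16.3% and 13.8%. The podocyte medians were -0.28, -0.05 and -0.40. In the same order Crim1 was at -0.10, -0.75 and -0.85 and Crispld2 at 0.31, -1.12 and -0.80. Library by library the podocyte sums were 1199, 1147 and 1072 for sham, 1076, 915 and 798 for I/R and 732, 839 and 1018 for I/R + rapamycin, and in the same order the Crim1 levels were 92.7, 88.6 and 102 CPM, 91.0, 81.8 and 92.2 CPM, and 42.4, 55.6 and 59.1 CPM. Among the treated libraries Crim1 and Crispld2 (6.98, 7.8 and 10.0 CPM) were ordered as the podocyte sum was, and among the sham and I/R libraries Crim1 was not. That treated order was not particular to podocyte markers. The mesangial, pericyte and smooth muscle sum (426, 462 and 522 CPM) shared it, as did the distal convoluted and connecting tubule sum (1020, 1206 and 1278 CPM). The remaining marker lists did not. The mesangial, pericyte and smooth muscle markers, 11 of 13 measured, summed to 436 to 605, 489 to 549 and 426 to 522 CPM, and the fibroblast markers, 7 of 8, to 373 to 807, 578 to 642 and 567 to 635 CPM, so these groups overlapped. The part of cell composition in the members' values was not tested.

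The immediate early and heat shock sum was low in all treated libraries (246 to 330 CPM), as were the 3 measured erythrocyte genes, whose sum was 84.8 to 524 CPM there, 1242 to 3332 CPM in I/R and 245 to 2552 CPM in sham. I/R 1 also had a low immediate early and heat shock sum, 304 CPM, and there Crim1 stood at 91.0 CPM and Crispld2 at 19.1 CPM, inside or above the range of the other I/R libraries (81.8 to 92.2 CPM and 16.3 to 18.5 CPM). That is 1 library, and the part of handling in the low treated values was not tested. Across all genes of the FPKM table, fold changes were related to transcript length, worked out from the ratio of count to FPKM (Spearman correlation 0.304, -0.483 and -0.256 in the 3 comparisons over 11232 genes, which are not independent replicates). The implied lengths of the members ran from 2600 bases for Serpine2 to 4589 bases for Crim1, around the table's median of 3202. With that trend removed, the values for I/R + rapamycin against I/R were -0.71 for Crim1 and -1.13 for Crispld2, and for I/R against sham -1.26 for Smoc1, -0.58 for Frzb and 1.05 for Serpine2. The genes of the pathway lists were not corrected for the trend, and its part in their values was not tested.

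**Figure D5:**
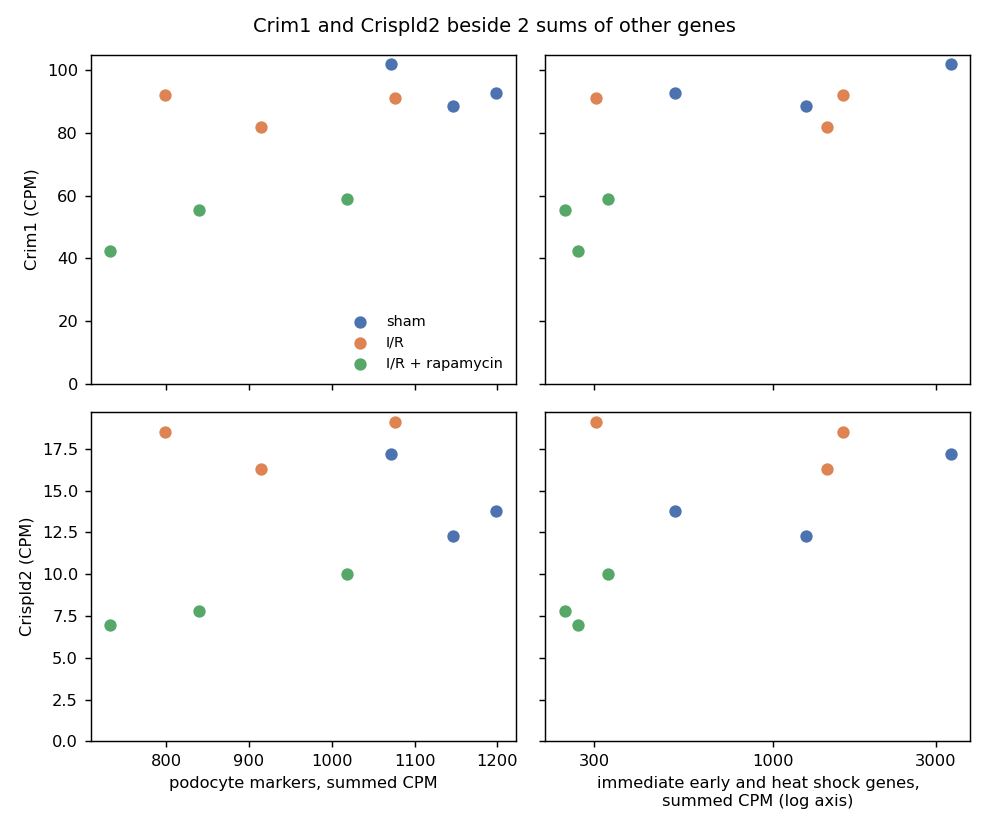
Points are libraries, coloured by group, with Crim1 (top) and Crispld2 (bottom) in CPM against the summed podocyte markers (left) and the summed immediate early and heat shock genes (right, log axis). Treated libraries lie lowest in Crim1 (42.4 to 59.1) and Crispld2 (6.98 to 10.0) while their podocyte sums (732 to 1018) overlap those of I/R (798 to 1076). On the right all treated libraries (246 to 330) and I/R 1 (304) have low sums, and Crim1 is at 91.0 in I/R 1.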

How the data were processed

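RNA of 9 rat kidney libraries was measured as poly(A) RNA-seq. The authors deposited raw counts for 30454 Ensembl gene IDs, and FPKM values with the same counts, per the file headers, for 11235 genes. In that table every gene reaches 1 FPKM in 8 or 9 libraries. Symbols come from that table alone. The submitters' processing notes list the tools HISAT2, cutadapt, DESeq2 and StringTie and the build Rnor_6.0. How reads were assigned to genes, strand included, is not given in the sources used here, so overlapping and antisense genes are not separable. The deposited coordinates do not settle the build and are not printed.

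Counts were fitted with edgeR 4.0.16 in R 4.3.3 (TMM, default low-count filter, robust quasi-likelihood tests, all 9 libraries, no covariates), and a gene was called at a Benjamini-Hochberg adjusted p under 0.05 over 17335 genes. Each standard error was derived from the log2 fold change and the F statistic. The members and lists were chosen with earlier results of these data known. Named genes are the members, genes of each list with the smallest p or called in a comparison, relatives of the members chosen after their values were seen, and the 3 genes best correlated with each member. Some results are not reported here. Alternatives used DESeq2 1.42.0, limma 3.58.1, other filters, size factors and libraries. No 2 libraries of a group agreed within sampling noise (chi-square of counts per degree of freedom 35.4 or more).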

Additional observations from a re-analysis of the deposited data

How the results depend on the processing

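Shifts were measured against each member's SD of log2 CPM within groups, pooled, from 0.119 for Frzb to 0.258 for Smoc1. Of 240 member fold changes recomputed under the alternatives, 236 stayed within 1 SD of the value reported, 4 moved further and 0 reversed a called value. The 4 were Serpine2 and Smoc1 with limma on log2(FPKM + 1), whose pseudocount understates low genes (0.81 for Serpine2 and -1.43 for Smoc1 in I/R + rapamycin against sham, -0.98 for Smoc1 in I/R against sham), and Serpine2 at 0.83 in I/R against sham without sham 3 and I/R 1 together. Left-out libraries moved Smoc1 between -1.97 and -1.73 and Crim1 between -0.95 and -0.72 in I/R + rapamycin against sham, Crispld2 between -1.28 and -1.01 in treated against I/R, and Frzb between -0.67 and -0.51 and Serpine2 between 0.88 and 1.11 in I/R against sham. Leaving out 1 of 3 libraries can hardly move a value by more than 1 such SD, and most other alternatives refit the same counts. The 236 of 240 were thus nearly fixed in advance and say little about stability.

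Counts of called genes moved far more. In the order I/R against sham, treated against I/R and treated against sham, edgeR called 10, 22 and 27 genes and DESeq2 240, 678 and 559. With the replicate block the counts were 1, 1 and 7, and without sham 3 and I/R 1 together 67, 128 and 104. With only the 6 libraries compared, 2 and 6 genes were called in the first and second comparison, with limma on log2(FPKM + 1) 22 and 12, and on log2(FPKM + 0.1) 25 and 11. Leaving out 1 library gave 0 to 36, 0 to 47 and 3 to 40. Of the 122 pathway genes edgeR called 0 in each comparison. DESeq2 called 2, 15 and 12, the fit without sham 3 and I/R 1 together 4 in treated against I/R and 2 against sham (Tgfb2 and Ccn1), and the replicate block 1 (F3) in the last comparison. Leaving out 1 library gave 0 to 1 in I/R + rapamycin against I/R, where Thbs1 was called without I/R 1, and 0 to 5 in I/R + rapamycin against sham, where Ccnd1, Coch, Klf15, Tsc22d3 and Flt1 were called without I/R + rapamycin 3. The causes were not tested.

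Same-numbered libraries did not deviate together (correlations of -0.187 to 0.132), so the number names a library and the block describes no pairing. The highest such correlation between libraries of different groups was 0.237, for sham 3 and I/R 1, which differ in number. These 2 libraries also lay lowest on the first principal component of log2 CPM (-75.66 and -58.97), which held 25.5% of the variance. What they share was not tested. With the replicate block Smoc1 kept its call in I/R + rapamycin against sham, and no other member was called. The members were chosen from these contrasts, so this is a description and no support for Smoc1. Depth limits little here, since each member had at least 222 reads in every library.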
